A study of Mus musculus with 2 samples.

Results

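The 40 genes described here encode the core of the cell cycle engine in mouse: the cyclins, the cyclin-dependent kinases (CDKs) they activate, the phosphatases and the kinase that switch those CDKs on and off, the E2F transcription factors with their DP partners, and the RB family that holds E2F back. They were taken by symbol from the gene tables, and all 40 were found among 43346 mouse genes, 21461 of which are nuclear protein-coding genes. The series measured total RNA in 2 libraries of common myeloid progenitors (CMP), bone marrow cells that give rise to erythrocytes, megakaryocytes, granulocytes and monocytes. Both replicate libraries started from 100 pooled primary cells taken from male mice of strain C57BL/6J, 5 to 6 weeks old, and kept RNA longer than 200 nucleotides. The labels call the libraries biological replicates 1 and 2 with separate biosamples under the same donor identifier. No p-value below therefore reaches beyond these 2 samples. P-values for gene pairs rest on the spread between the libraries, moderated over all genes fitted. The exact binomial and Fisher's tests between the libraries measure counting error alone. There is no second cell type or treatment, and the comparisons are therefore between genes, between transcripts and between the libraries.

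In G1 the D-type cyclins switch on CDK4 and CDK6, and cyclin E then switches on CDK2. Both kinase complexes phosphorylate RB, which releases E2F and lets the genes of DNA synthesis be transcribed. Cyclin A with CDK2 and later cyclins A and B with CDK1 carry the cell through S phase and into mitosis. E2F1 to E2F3 are known as activators, while E2F4 to E2F8 are classed as repressors, E2F4 and E2F5 by binding the RB relatives p107 (Rbl1) and p130 (Rbl2). The members CDK7, CDK8, CDK9, CDK12 and CDK13 with cyclins C and H are grouped here by their action on RNA polymerase II.

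Several members were read through different transcripts in the libraries, and the coding sequences that tell those transcripts apart are given first, since later values turn on them. All are reference sequence of GRCm38 from GENCODE M21, on the strand of the gene, with no base in an annotated untranslated region. CDC25B is a phosphatase that activates CDK1, and Cdc25b-201 holds 123 coding bases at chr2:131191813-131191935 that Cdc25b-202 lacks, while Cdc25b-202 holds 45 coding bases at chr2:131191722-131191766 that Cdc25b-201 lacks. Ccnb1-201 holds 183 coding bases of cyclin B1 at chr13:100783465-100783647 that Ccnb1-202 lacks. E2f1-201 holds 111 coding bases at chr2:154569067-154569177 that E2f1-202 lacks, and E2f1-202 holds 14 coding bases at chr2:154569721-154569734 that E2f1-201 lacks, which are not shown.
Cdc25b-201 alone: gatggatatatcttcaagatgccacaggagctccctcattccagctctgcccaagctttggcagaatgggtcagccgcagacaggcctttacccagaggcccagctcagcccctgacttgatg
Cdc25b-202 alone: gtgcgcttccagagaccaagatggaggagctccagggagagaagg
Ccnb1-201 alone: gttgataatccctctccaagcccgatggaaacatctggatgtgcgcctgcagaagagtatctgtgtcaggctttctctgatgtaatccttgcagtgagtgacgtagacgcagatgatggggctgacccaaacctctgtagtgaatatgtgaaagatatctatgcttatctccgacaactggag
E2f1-201 alone: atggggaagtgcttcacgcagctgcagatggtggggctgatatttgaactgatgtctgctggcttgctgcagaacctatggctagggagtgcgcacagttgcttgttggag
The 4 lengths printed are multiples of 3, as 41, 15, 61 and 37 codons.

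Each of the 40 members reached the detection threshold of 1 TPM in both replicates, as did 44.9% of the 21461 nuclear protein-coding genes. TPM is a level scaled to depth and corrected for transcript length, so it can be set side by side between genes. The lowest value was 1.18 TPM for Cdc25c in replicate 2 and the highest 269 TPM for Cdk4 in replicate 1. The median member stood at 19.8 TPM in replicate 1 and 18.1 TPM in replicate 2, where the median detected coding gene stood at 13.2 and 13.5 TPM. By mean TPM, 26 of the 40 lay above the median of detected coding genes. At least 10 TPM was reached in both libraries by 26 members, and 4 stayed below 5 TPM in both. The expected counts summed to 28916263 (replicate 1) and 26426710 (replicate 2), and the thinnest member value rested on 43 counts.

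**Figure D1:**
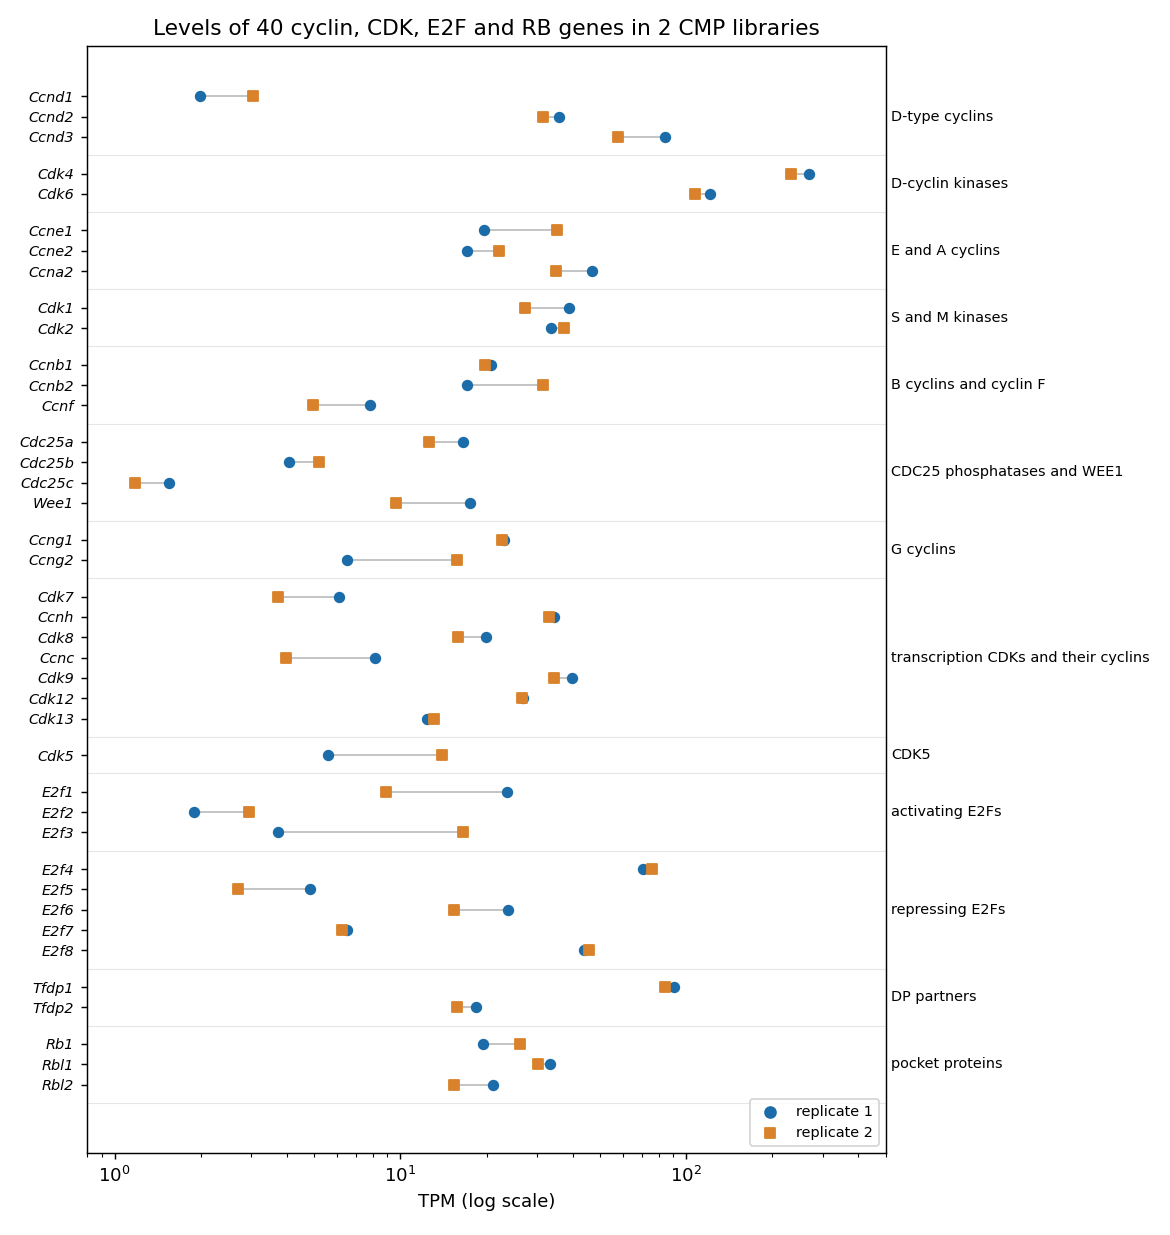
TPM of the 40 members in each library on a log axis, grouped by role, with circles for replicate 1, squares for replicate 2 and a grey line joining them. Cdk4 and Cdk6 lie highest and Cdc25c lowest, and the line is longest for E2f3, at 3.74 and 16.5 TPM.

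The labelled cell type was checked first. Kit, the receptor used to gate progenitors, stood at 98.1 and 93.0 TPM in replicates 1 and 2, and Cd34 at 74.5 and 55.4 TPM, while Ly6a (Sca-1) and Il7r, which the CMP gate excludes, had 0 counts in both. The Fc receptor genes of the gate, whose products CMP carry at a low level, were low in replicate 1 and higher in replicate 2: Fcgr3 stood at 0.64 and 4.27 TPM (log2 difference in TMM-scaled counts 2.65) and Fcgr2b at 2.48 and 9.59 TPM (1.26), and both were called by the binomial test between libraries described below. How far these genes move with the members was not tested. With 0 counts, a level of up to 0.1037 CPM (counts scaled to depth) in replicate 1 and 0.1135 in replicate 2 (3 counts of the total) cannot be told from absence. All 7 erythroid-megakaryocyte progenitor markers and all 7 granulocyte-monocyte progenitor markers were detected in both libraries, summing to 1479 and 1477 TPM and to 543 and 584 TPM. Car1, at 1185 and 1086 TPM, and Mpo, at 386 and 386 TPM, carry most of these sums, and single markers differed more: Itga2b stood at 49.8 and 100.02 TPM, Prtn3 at 37.1 and 105 TPM, Elane at 20.99 and 9.14 TPM and Csf1r at 10.8 and 4.63 TPM. These 4 were named after their values were seen. Of 12 markers of B, T and NK cells, macrophages and stroma, 2 were detected in both libraries, Pecam1 and Cd68, and their 12-gene sum was 30.3 and 22.1 TPM. A bulk library cannot separate more cells in cycle from more RNA per cycling cell, and this holds for every level below.

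Cyclins D2 and D3 were the D-type cyclins of these cells, with cyclin D1 far lower. Ccnd3 stood at 84.1 TPM in replicate 1 and 57.9 TPM in replicate 2, Ccnd2 at 35.8 and 31.5 TPM, and Ccnd1 at 1.99 and 3.05 TPM. The order was the same in both libraries. Pairs of genes were compared on the log2 scale of TPM plus 1 with variances moderated by limma over 13614 genes, and p-values were adjusted over the 38 pairs that could be tested. Ccnd3 exceeded Ccnd1 by 4.35 on that scale (95% interval 3.24 to 5.46, adjusted p = 9.9e-05), and Ccnd2 exceeded Ccnd1 by 3.31 (2.20 to 4.43, adjusted p = 0.00035). Per library, Ccnd1 made up 1.63% and 3.30% of the summed D-cyclin TPM.
Ccnd3 also exceeded Ccnd2, by 1.03 (0.44 to 1.63, adjusted p = 0.0053). That call was lost with no variance trend (adjusted p = 0.057) and in a fit to the pair ratios alone (0.062). In CPM, which has no length correction, the sign turned and Ccnd2 was higher by 0.83 (adjusted p = 0.00047). The call also depended on what is counted as Ccnd3: 283 bases of retained intron, Ccnd3-209, gave 27.9% of its TPM in replicate 2 from 41.9 counts. Over protein-coding transcripts alone, Ccnd3 and Ccnd2 held 48.7% and 46.7% of the family in replicate 2, the difference was 0.54, and its adjusted p was 0.39, the highest of the alternatives.

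The partner kinases of the D cyclins carried the highest levels of the set over all transcripts. Over protein-coding transcripts in replicate 2, Tfdp1 at 84.1 TPM stood above Cdk4 at 77.6 TPM. Cdk4 stood at 269 and 232 TPM, above 98.2% of detected coding genes, and Cdk6 at 121 and 107 TPM. Their order depended on the transcripts read. Cdk4 exceeded Cdk6 by 1.13 (0.66 to 1.59, adjusted p = 0.00060) over all transcripts. But only 41.1% and 33.5% of Cdk4 TPM came from protein-coding transcripts, and Cdk4-209, a retained intron of 468 bases, gave 36.6% and 41.0% of it. Over protein-coding transcripts Cdk4 stood at 111 and 77.6 TPM and Cdk6 at 121 and 107 TPM, and the sign turned: the difference was -0.29 (-0.996 to 0.41, adjusted p = 0.32, range over the alternatives 0.00015 to 0.32). Counts, which carry no length correction, were higher for Cdk6 as well, at 8123 and 7232 against 5438 and 4647 for Cdk4. In CPM the sign turned too (-0.61, adjusted p = 0.0058). The length used was 3415 and 3459 bases for Cdk6 and 1129 and 1141 bases for Cdk4, so at equal level Cdk6 takes more counts. Cdk6-202, with 82.0% and 84.7% of Cdk6 counts, is 3735 bases in the deposited tables and 11525 bases in GENCODE M21. The order of this pair rests on that length too.

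Next in the cycle, the E and A cyclins and their kinases stood between 17.1 and 46.9 TPM. Ccne1 stood at 19.6 and 35.4 TPM and Ccne2 at 17.1 and 22.2 TPM, a difference of 0.42 whose interval ran from -0.34 to 1.18 (adjusted p = 0.33). Short non-coding transcripts were large in both genes: Ccne2-204, of 418 bases, gave 67.4% of Ccne2 TPM in replicate 2 from 78.8 counts. Over protein-coding transcripts Ccne1 stood at 19.6 and 22.8 TPM and Ccne2 at 9.18 and 6.88 TPM, and Ccne1 was higher by 1.31 (0.48 to 2.13, adjusted p = 0.042, range over the alternatives 0.042 to 0.49).
Ccna2, the somatic cyclin A, stood at 46.9 and 34.9 TPM. Its germline relative Ccna1 had 0 counts in both, so Ccna2 was at least 456-fold higher in replicate 1 and at least 335-fold higher in replicate 2, with 3 counts per library as the floor. Cdk1 stood at 38.9 and 27.2 TPM and Cdk2 at 33.6 and 37.3 TPM, each leading in 1 library, and their difference was -0.12 (-0.74 to 0.51, adjusted p = 0.72, range over the alternatives 0.00011 to 0.81). In CPM, with no length correction, Cdk2 was higher by 1.27 and this passed (adjusted p = 0.00011). Ccna2 and Cdk2 differed by 0.19 (-0.41 to 0.79, adjusted p = 0.57).

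Cyclins B1 and B2 stood below cyclin A2 in TPM, but only Ccnb1 was tested against it. In replicate 2 Ccnb2 came close, at 31.6 TPM against 34.9 TPM for Ccna2. Ccnb1 stood at 20.8 and 19.7 TPM, and Ccna2 exceeded it by 0.96 (0.31 to 1.62, adjusted p = 0.016). The call is lost with no variance trend (adjusted p = 0.064) and in a fit to the pair ratios alone (0.078, range over the alternatives 1.1e-05 to 0.078). Ccnb2 stood at 17.1 TPM in replicate 1 and 31.6 TPM in replicate 2, so Ccnb1 led in the first library and Ccnb2 in the second, and the pair's difference was -0.19 (-0.96 to 0.57, adjusted p = 0.65). Ccnf, an F-box protein that directs ubiquitination and binds no CDK, stood at 7.83 and 4.95 TPM. Cdk1, the kinase of cyclin B, and Ccnb1 differed by 0.66 in favour of Cdk1 (-0.02 to 1.34, adjusted p = 0.086, range over the alternatives 0.044 to 0.68). It passed with a single length per gene (adjusted p = 0.044) and turned sign in CPM (adjusted p = 0.20).

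Among the regulators of CDK phosphorylation, Cdc25a was the leading phosphatase. Cdc25a, which acts at G1/S and later, stood at 16.5 and 12.6 TPM, Cdc25b at 4.07 and 5.17 TPM, and Cdc25c at 1.55 and 1.18 TPM. All 3 kept this order in both libraries. Cdc25a exceeded Cdc25c by 2.71 (1.52 to 3.90, adjusted p = 0.0011) and Cdc25b by 1.46 (0.41 to 2.52, adjusted p = 0.021), the latter missing the threshold over protein-coding transcripts alone (adjusted p = 0.058, range over the alternatives 1.0e-04 to 0.058). The difference from Cdc25b was 1.47 there, so the loss came with the variances, which were fitted anew. Cdc25b exceeded Cdc25c by 1.25, with an interval that reached below 0 (-0.08 to 2.57, adjusted p = 0.093). It passed under 4 alternatives: CPM (adjusted p = 0.018), posterior mean TPM (0.044), no variance trend (0.027) and pair ratios alone (0.025), with a highest value of 0.16 among the others.
Wee1, the kinase that opposes them, stood at 17.5 and 9.62 TPM and its relative Pkmyt1 at 12.9 and 17.8 TPM. The order of these inhibitors changed between the libraries, and their difference was -0.20 (-1.09 to 0.68, adjusted p = 0.66). Wee1 and Cdc25a differed by -0.14 (-1.02 to 0.75, adjusted p = 0.74, range over the alternatives 0.0055 to 0.79), and in CPM the difference was -1.06 and passed (adjusted p = 0.0055). Wee1 exceeded Cdc25b by 1.33 (0.23 to 2.42, adjusted p = 0.039). The call was lost in CPM without a length correction (adjusted p = 0.14, the highest of the alternatives, which started at 0.017). It was also lost in a fit over genes with a count above 0 (0.060) and over protein-coding transcripts (0.078). Over protein-coding transcripts the difference was still 1.33, so that loss came with the variances, which were fitted anew. The single counted transcript of Wee1 is 1941 bases in the deposited tables and 3419 bases in GENCODE M21. All differences given here for Wee1 in TPM rest on the shorter length.

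Cyclin G1, a p53 target, and cyclin G2, which is known from cells leaving the cycle, differed in how steady they were. Ccng1 gave 23.0 and 22.7 TPM. Ccng2 gave 6.48 and 15.8 TPM and stayed below Ccng1 in both, by 1.09 (0.15 to 2.04, adjusted p = 0.047, range over the alternatives 0.00015 to 0.13). A retained-intron transcript, Ccng2-203, took 50.5% and 44.1% of the Ccng2 counts. Cdk5, best known from neurons, stood at 5.60 and 13.9 TPM. Its neuronal activators were at the floor, with 1 and 0 counts for Cdk5r1 and 0 counts in both libraries for Cdk5r2.

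Of 4 pairs of a transcription kinase and its cyclin, 2 differed in level by the test. Cyclin H, the partner of CDK7 in TFIIH, stood at 34.4 and 33.0 TPM, while Cdk7 stood at 6.10 and 3.74 TPM, a difference of 2.58 (1.57 to 3.59, adjusted p = 0.00075). This difference rests on the length given to Cdk7, whose single counted transcript is 7595 bases in the deposited tables and 1988 bases in GENCODE M21. Counts were 807 and 795 for Ccnh against 933 and 570 for Cdk7, and without a length correction the pair differed by 0.13 (adjusted p = 0.69, range over the alternatives 1.7e-05 to 0.69).
In the Mediator kinase module the relation was the other way. Ccnc, the cyclin, stood at 8.15 and 3.98 TPM and Cdk8, its kinase, at 19.9 and 15.9 TPM, so that Cdk8 was higher by 1.48 (0.43 to 2.52, adjusted p = 0.020, range over the alternatives 0.0021 to 0.078). Cdk19, the paralogue of Cdk8, stood at 11.3 and 12.7 TPM and the difference of 0.53 in favour of Cdk8 missed the threshold (-0.27 to 1.34, adjusted p = 0.24, range over the alternatives 0.035 to 0.97). In CPM the sign turned and Cdk19 was higher by 0.66 (adjusted p = 0.035).
Cdk9, the elongation kinase of P-TEFb, stood at 39.8 and 34.5 TPM beside 29.4 and 34.0 TPM for its partner Ccnt1 (difference -0.22, -0.83 to 0.38, adjusted p = 0.50). Over protein-coding transcripts alone Cdk9 was higher than Ccnt1 by 1.75 (1.05 to 2.44, adjusted p = 0.029, range over the alternatives 0.029 to 0.73). Cdk9 itself was lower on that measure, at 30.4 and 24.5 TPM, so the wider gap came from a lower Ccnt1 value. Cdk12 was steady at 26.9 and 26.6 TPM and Cdk13 at 12.3 and 13.1 TPM. Cdk12 exceeded Cdk13 by 1.02 (0.27 to 1.76, adjusted p = 0.021), and the fit to the pair ratios alone did not call it (adjusted p = 0.065, range over the alternatives 0.0083 to 0.065). Ccnk, the cyclin both use, stood at 34.3 and 29.6 TPM, with a difference of 0.24 from Cdk12 (-0.38 to 0.87, adjusted p = 0.50, range over the alternatives 0.0069 to 0.73). Alternatives called this pair in opposite directions, with Cdk12 higher by 0.69 in CPM (adjusted p = 0.0069) and Ccnk higher by 0.53 over protein-coding transcripts (adjusted p = 0.036).

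**Figure D2:**
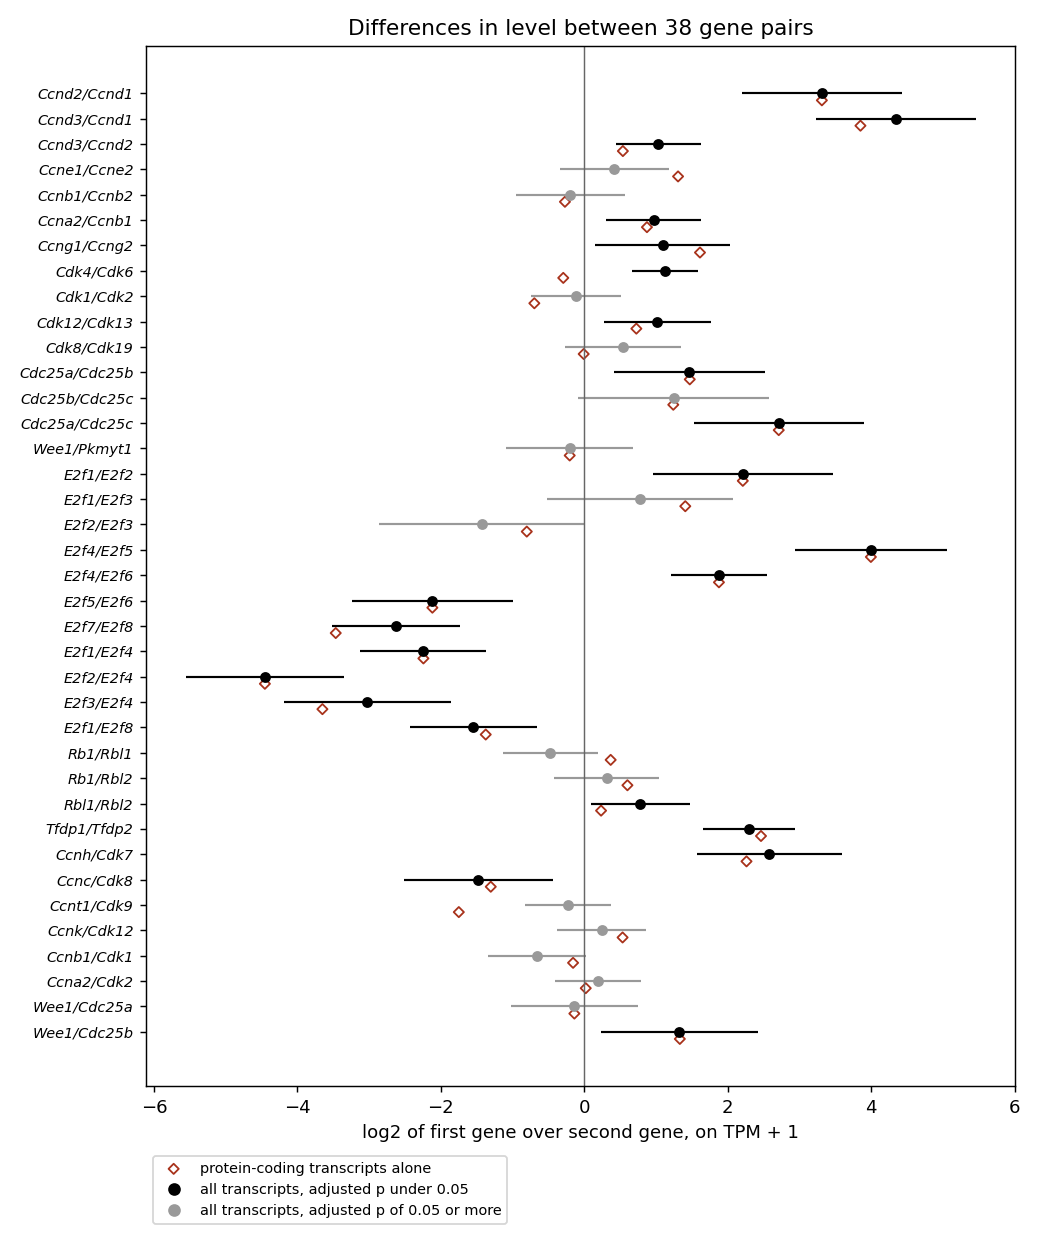
Log2 difference in level (TPM plus 1) of the first over the second gene for the 38 tested pairs, with 95% intervals. Filled black points pass an adjusted p of 0.05 and grey points do not. Open diamonds give the same difference over protein-coding transcripts alone, and for Cdk4/Cdk6, Rb1/Rbl1 and (at -0.0087) Cdk8/Cdk19 they lie on the other side of 0.

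E2f4 and E2f8 led the E2F family, and the activators were lower. E2f4 stood at 70.4 and 75.7 TPM, making up 39.4% and 43.5% of all E2F TPM, and E2f8 at 43.7 and 45.6 TPM with 24.5% and 26.2%. E2f6, which represses without an RB protein, stood at 23.8 and 15.4 TPM, E2f7 at 6.52 and 6.26 TPM and E2f5 at 4.82 and 2.70 TPM. Within the repressors E2f4 exceeded E2f5 by 3.99 (2.93 to 5.06, adjusted p = 0.00012) and E2f6 by 1.88 (1.21 to 2.55, adjusted p = 0.00034). E2f6 exceeded E2f5 by 2.12 (0.999 to 3.24, adjusted p = 0.0043). E2f8 exceeded its close paralogue E2f7 by 2.63 (1.73 to 3.52, adjusted p = 0.00034), and by 3.47 over protein-coding transcripts, where E2f7 stood at 3.34 and 2.10 TPM.

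The order of the activators changed between the libraries. E2f1 stood at 23.7 TPM in replicate 1 and 8.89 TPM in replicate 2, E2f3 at 3.74 and 16.5 TPM, and E2f2 at 1.89 and 2.95 TPM. E2f1 thus led in replicate 1 and E2f3 in replicate 2. The E2f3 value of replicate 2 was mostly E2f3-202, a processed transcript of 216 bases in the deposited tables that holds 14 of 602 counts and 61.7% of the TPM. Over protein-coding transcripts E2f3 stood at 3.74 and 6.32 TPM, below E2f1 in both libraries. E2f1 and E2f3 differed by 0.78 (-0.52 to 2.08, adjusted p = 0.28) over all transcripts and by 1.41 (-0.34 to 3.15, adjusted p = 0.13, range over the alternatives 0.081 to 0.39) over protein-coding transcripts. E2f1 exceeded E2f2 by 2.21 (0.96 to 3.46, adjusted p = 0.0053, range over the alternatives 0.00014 to 0.057). E2f2 and E2f3 differed by -1.43 (-2.86 to -0.0039, adjusted p = 0.078, range over the alternatives 0.010 to 0.23).

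Every activator was below E2f4. The difference was 2.24 for E2f1 (1.37 to 3.12, adjusted p = 0.00075), 4.45 for E2f2 (3.35 to 5.56, adjusted p = 9.9e-05) and 3.02 for E2f3 (1.86 to 4.18, adjusted p = 0.00084). E2f8, itself a target and brake of the activators, exceeded E2f1 by 1.55 (0.66 to 2.44, adjusted p = 0.0068). Over protein-coding transcripts the E2f1 differences from E2f4 and E2f8 missed the threshold, at adjusted p = 0.078 and 0.14, each the highest value among that pair's alternatives. Their lowest values were 7.4e-10 and 1.6e-10. The difference from E2f4 was still 2.24 over protein-coding transcripts, so that loss came with the variances, which were fitted anew there. The difference from E2f8 was 1.37. Summed, the activators came to 29.3 and 28.3 TPM and the repressors to 149 and 146 TPM, a log2 ratio of -2.35 in replicate 1 and -2.36 in replicate 2. The make-up of the activating sum differed all the same: E2f1 was 80.8% of the activating sum in replicate 1 and 31.4% in replicate 2. Over protein-coding transcripts the ratio was -2.22 and -2.96.

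**Figure D3:**
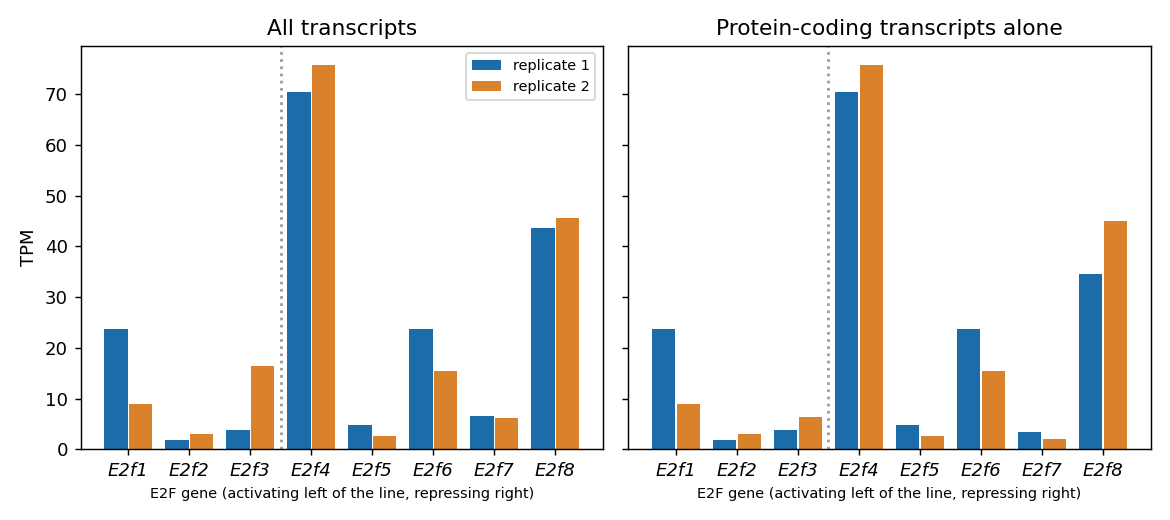
TPM of the 8 E2F genes in both libraries, over all transcripts on the left and over protein-coding transcripts on the right. A dotted line parts the activators from the repressors, and the replicate 2 bar of E2f3 shrinks from 16.5 to 6.32 TPM between the panels.

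The DP proteins bind DNA together with E2F1 to E2F6. Tfdp1 was the main partner, at 90.6 and 84.1 TPM against 18.4 and 15.7 TPM for Tfdp2, a difference of 2.29 (1.65 to 2.94, adjusted p = 9.9e-05). It supplied 83.1% and 84.2% of the pair's TPM. In CPM, without a length correction, the difference was 0.79 and still passed (adjusted p = 0.0019). Tfdp2-201, with 79.9% and 78.8% of Tfdp2 counts, is 7354 bases long, and Tfdp1-201 is 1700 bases. All 3 pocket proteins lay between 15.4 and 33.3 TPM: Rbl1 at 33.3 and 30.2 TPM, Rb1 at 19.5 and 26.1 TPM and Rbl2 at 21.04 and 15.4 TPM. Rbl1 exceeded Rbl2 by 0.78 (0.09 to 1.48, adjusted p = 0.0497), which 5 alternatives turned to no call (range 0.017 to 0.47). Rb1 differed from Rbl1 by -0.47 (-1.13 to 0.19, adjusted p = 0.21) and from Rbl2 by 0.31 (-0.43 to 1.05, adjusted p = 0.47).
Retained introns weighed on this family too. Protein-coding transcripts made 39.8% and 46.0% of Rbl1 TPM, 44.9% and 88.8% of Rbl2 TPM and 92.7% and 67.0% of Rb1 TPM. On that measure Rb1 came first in both libraries, at 18.1 and 17.5 TPM, with Rbl1 at 13.2 and 13.9 TPM, a difference of 0.37 (0.01 to 0.72, adjusted p = 0.078, the lowest of the alternatives, which reached 0.68).

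Of the 38 tested pairs 23 passed, and 31 had the same sign in both libraries. Pairs were also simulated from independent genes, each given the variance that the fitted trend has at its level. There the test passed 48% of log2 ratios of 1, 90% of log2 ratios of 2 and 2% of ratios of 0. A pair that missed the threshold may thus still differ. Departures of single genes from the trend and errors of transcript length or assignment were not simulated, so these rates may not hold for the members. Over protein-coding transcripts 16 pairs passed, an alternative chosen after the data were seen, as was the single length per gene. The protein-coding alternative fits the variances anew, and genes without a protein-coding transcript enter that fit at 0. E2f4/E2f5 thus went from an adjusted p of 0.00012 to 0.034 with its difference unchanged. The fall from 23 to 16 is therefore not a measure of transcript choice alone.

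The transcripts that carried the counts differed between the libraries in many members. A single annotated transcript took all counts of 16 members, and 24 were split over more than 1. The share of counts in the leading transcript was compared between the libraries by Fisher's exact test with adjustment over all 7338 genes tested. It differed for 22 of the 28 members tested, beside 77.8% of all genes tested, and the share of the members is close to that. By more than 20 percentage points it moved in 5 of the 28 members, beside 37.9% of all genes tested. Genes with at least 2 annotated transcripts were tested, with or without counts on each. Ccnd1, Ccng1, E2f2 and E2f5 had all counts on 1 transcript in both libraries, so no difference was possible for them. Cdc25b changed completely: in replicate 1 all 246 counts lay on Cdc25b-201, with the 123-base stretch printed above, and in replicate 2 298 of 299 counts lay on Cdc25b-202 (adjusted p = 1.3e-158). For Ccnb1, the form with the 183-base stretch took 31.6% of counts in replicate 1 and 86.8% in replicate 2 (adjusted p = 7.5e-131). E2f1-202 took 98.3% of E2f1 counts in replicate 1 and 66.9% in replicate 2, and E2f1-201, with the 111 bases given above, had 20.9 and 156 counts (adjusted p = 1.1e-72).
The other two are Ccne2, whose leading coding transcript held 56.6% and 83.2% of counts, and Cdk1, whose Cdk1-202 held 78.9% and 53.8%. The counts are the deposited estimates of how reads divide among overlapping transcripts, so the test sees counting error but not the error of that division.

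**Figure D4:**
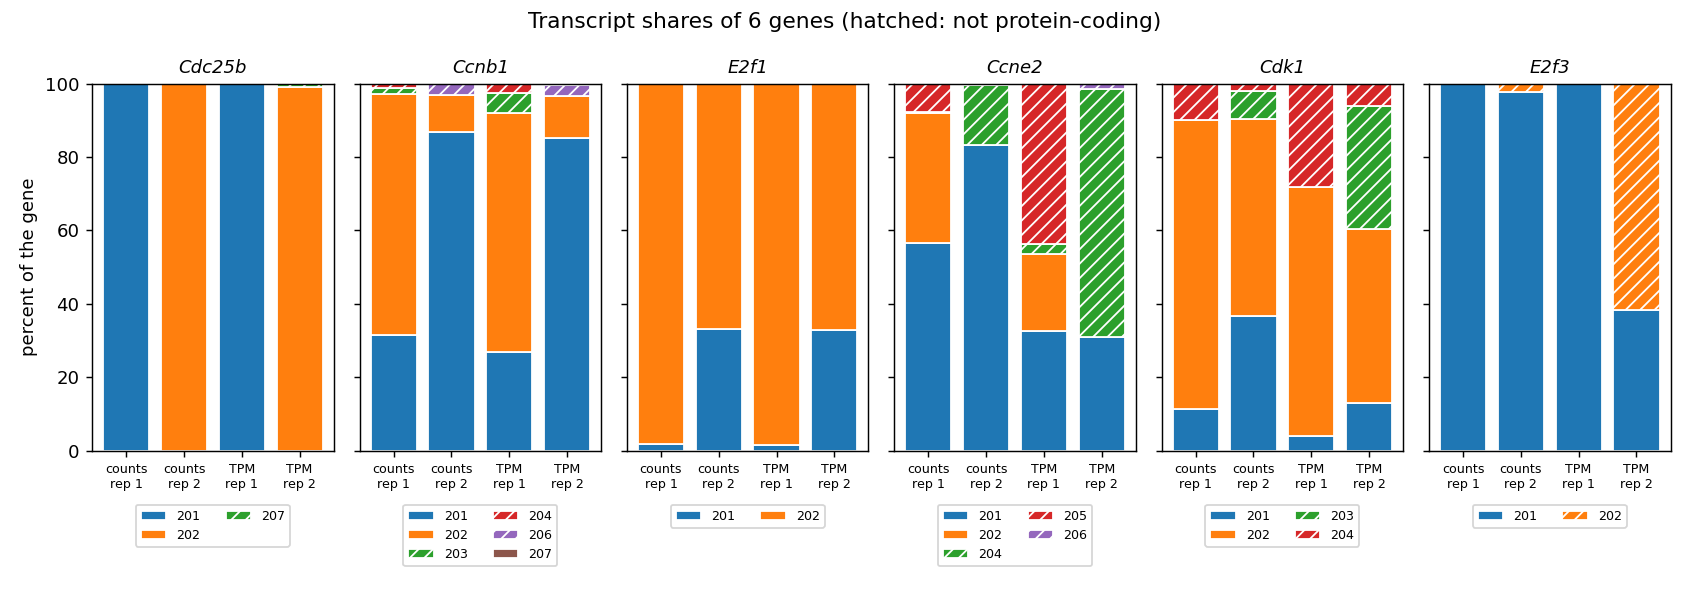
Share of each annotated transcript in the expected counts and in the TPM of 6 genes, for replicates 1 and 2 (hatched parts are not protein-coding). Cdc25b passes from transcript 201 to 202 between the libraries, and in E2f3 a thin slice of counts, 2.33%, becomes 61.7% of TPM in replicate 2.

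The last comparison sets the libraries against each other, gene by gene. On TMM-scaled counts the median absolute log2 difference was 0.31 for the 40 members and 0.51 for all 13500 genes tested. A two-sided exact binomial test, which knows counting error alone and compares these 2 libraries rather than conditions, called 28 of 40 members with adjustment over all genes, beside 78.2% of all genes. Higher in replicate 2 were 9 members, beside 40.5% of genes, and lower were 19, beside 37.6%. In edgeR's exact test at the common dispersion 0 members and 0 genes were called, and an unadjusted p under 0.05 was reached by 0 members and 1554 genes. That dispersion, 0.567, is estimated from the difference between the same 2 libraries, so few calls could be made and their absence says nothing about whether the members are stable. A difference of 2-fold or more with at least 50 counts was seen in 4 of 40 members, beside 21.7% of the 11633 genes with that many counts.
The 4 were Cdk5 (219 and 540 counts, log2 difference 1.27), Ccng2 (427 and 981 counts, 1.17), E2f1 (1258 and 470 counts, -1.45) and Ccnd3 (3001 and 1511 counts, -1.02). The steadiest members were Rb1, Tfdp2 and Cdk12, at 0.02, -0.03 and 0.03. E2f3, whose log2 difference in TPM was the largest of the members at 2.14, differed by 0.75 in counts.

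**Figure D5:**
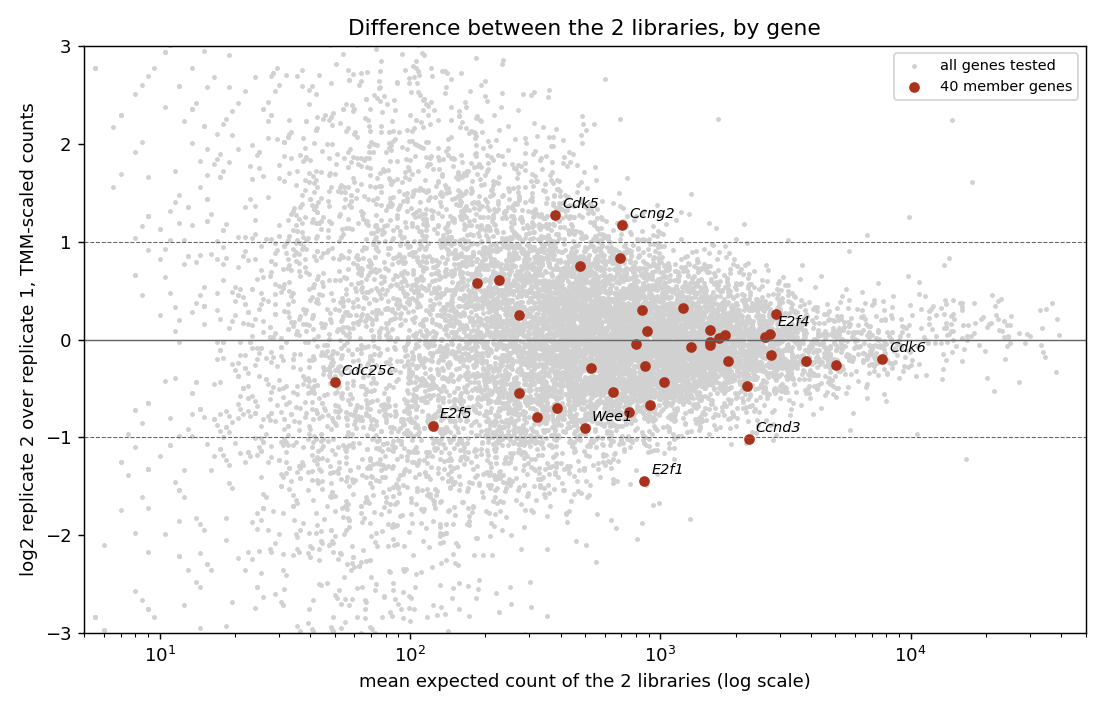
Log2 difference between the libraries in TMM-scaled counts against mean count for all genes tested (grey) and the 40 members (red), with points outside the axes not drawn. Dashed lines mark 2-fold, and 4 members lie beyond them.

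Other genes of the pathway were read from lists of its parts. For scale in what follows, 44.9% of nuclear protein-coding genes were detected, and the binomial test called 78.2% of all genes tested, 40.5% higher and 37.6% lower in replicate 2, so that a call in some direction was the usual outcome. Of 7 CDK inhibitors 3 were detected in both libraries, led by Cdkn1b (p27) at 7.26 and 11.2 TPM and Cdkn2d (p19Ink4d) at 7.26 and 10.2 TPM, with Cdkn1c (p57) and Cdkn2a at 0 counts. Of the 4 tested, the binomial test called 3 higher and 1 lower in replicate 2. All 18 S phase targets of E2F were detected, led by Pcna at 211 and 201 TPM and Mcm3 at 207 and 176 TPM, with 2 called higher and 13 lower in replicate 2 and a median log2 difference of -0.26. Ccne1 is both a member and in this list.
All 15 mitotic genes were detected too, led by Top2a at 78.6 and 99.2 TPM and Mki67 at 82.1 and 78.4 TPM, with 1 called higher and 13 lower and a median of -0.56. Plk1 and Aurka, chosen after their values were seen, went furthest, from 510 to 93 counts and from 572 to 132 counts. All 6 MuvB and DREAM subunits were detected, and 5 were called lower and 0 higher, with a median of -0.52. Over all genes tested the median was 0.03. The median member stood at -0.11, and how far these lists and the lower E2f1 of replicate 2 share a source was not tested.
Of 12 further cyclins 8 were detected, led by Ccnl1 at 68.7 and 67.9 TPM and Ccni at 50.9 and 55.4 TPM, while Ccnb3 and Ccno had 0 counts. The test called 5 of the 9 tested higher and 3 lower. Of 11 further CDKs matched, 6 were detected, led by Cdk16 at 33.4 and 36.6 TPM and Cdk11b at 28.7 and 37.7 TPM, with 4 called higher and 4 lower. CDK partners and regulators were detected in 10 of 12, led by Cdk2ap1 at 161 and 111 TPM and the CDK-binding Cks2 at 82.2 and 127 TPM, with 4 called higher and 4 lower. All 10 matched genes of the ubiquitin ligases of cyclins were detected, led by the APC/C scaffold Anapc1 at 91.2 and 40.4 TPM and Cul1 at 48.6 and 46.1 TPM, with 2 called higher and 6 lower.

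Promoters of the members were read from RefSeq windows on GRCm38.p6 of 250 bases before to 50 after a start site, and 34 windows of 29 member genes were matched. Searched on both strands were the E2F letters TTTCCCGC, TTTGGCGC, TTTCGCGC and TTTGCCGC, the CHR letters TTTGAA, which are known from genes repressed by DREAM, and CCAAT. E2F letters stood in 9 of 34 member windows (26.5%) and in 2.26% of all 32851 windows, CHR letters in 7 (20.6%, all windows 17.9%) and CCAAT in 16 (47.1%, all windows 37.4%). The E2F letters came with Cdc25a, Cdk1, Cdk2, E2f2, E2f3, E2f7, Rbl1 and Tfdp1. A match is a string of letters and not a measured site. Stretches of 4 promoters are printed as examples, with the matched letters of any motif, on either strand, in capitals and with the last base of each next to the start site except for Cdk1, which ends 27 bases before it. They lie at chr9:109875479-109875578 (plus strand) for Cdc25a, chr13:29986064-29986163 (minus strand) for E2f3, chr2:157204535-157204594 (minus strand) for Rbl1 and chr10:69352939-69353012 (minus strand) for Cdk1.
Cdc25a promoter: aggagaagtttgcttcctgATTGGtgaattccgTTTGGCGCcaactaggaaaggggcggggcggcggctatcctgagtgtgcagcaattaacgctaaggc
E2f3 promoter: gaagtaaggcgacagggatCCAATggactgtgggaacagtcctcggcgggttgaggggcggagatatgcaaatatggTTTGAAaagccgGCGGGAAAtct
Rbl1 promoter: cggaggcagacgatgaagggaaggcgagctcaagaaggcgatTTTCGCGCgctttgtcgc
Cdk1 promoter: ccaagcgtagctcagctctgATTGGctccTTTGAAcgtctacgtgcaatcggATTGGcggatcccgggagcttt
Cdc25a and Rbl1 show E2F letters, E2f3 shows E2F and CHR letters with a CCAAT, and the Cdk1 stretch shows CHR letters between CCAAT matches on the other strand.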

How the data were processed

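Members and lists were chosen with earlier results of these data known. Per the file headers the authors deposited expected counts (estimates in which shared reads are divided), TPM, and each transcript's percent share of the gene's TPM, for mm10 with GENCODE M4. The aligner, quantifier and strand setting were not given in the sources used here. Of the members, 17 overlap an exon of a gene on the opposite strand and 2 on the same strand, so reads of overlapping genes may be shared. Symbols, coordinates and transcript types came from GENCODE M21 by unversioned identifier (42462 of 43346 genes matched).

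Pairs were tested two-sided on log2(TPM + 1) with limma 3.58.1 (R 4.3.3), an intercept fit with a variance trend over genes with 10 or more expected counts in a library, and Benjamini-Hochberg adjustment at 0.05. A pair's variance is the sum of its genes' moderated variances, which treats the 2 genes as independent. Libraries were compared on rounded expected counts with TMM from edgeR 4.0.16, ribosomal RNA genes and spike-ins left out, by exact binomial tests (DESeq2 1.42.0 size factors as an alternative). Leading transcripts were tested where a gene had at least 2 transcripts and 50 counts per library. Of the tests, the pair test alone was checked on simulated data. Genes named are all members, all genes of the pairs, and from each list the 4 highest and up to 4 genes below 1 TPM; some are left out for length. Cdk3 and Skp1 matched no symbol. Intervals and floors from counts cover counting error only.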

Additional observations from a re-analysis of the deposited data

How the results depend on the processing

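All 40 members stayed detected at 0.5 TPM, in posterior mean TPM, in TPM rescaled over nuclear protein-coding genes, over protein-coding transcripts and in either library alone (40 to 40), and 31 reached 5 TPM in both. The count of passing pairs, 23, ranged from 16 (protein-coding transcripts) to 26 (CPM). The 16 reflects variances fitted anew as well as the transcripts read. Leaving out a library leaves no spread, so no such count exists then. In CPM, counts scaled to depth that lack a length correction, 7 pairs changed sign: Ccnd3/Ccnd2 to -0.83, Ccnb1/Ccnb2 to 0.40, Cdk4/Cdk6 to -0.61, Cdk8/Cdk19 to -0.66, Ccnt1/Cdk9 to 0.25, Ccnk/Cdk12 to -0.69 and Ccnb1/Cdk1 to 0.45. Over protein-coding transcripts alone 3 did: Cdk4/Cdk6 to -0.29, Cdk8/Cdk19 to -0.0087 and Rb1/Rbl1 to 0.37. With a single library 7 pairs turned, their 2 libraries giving -0.65 and 0.27 (Ccnb1/Ccnb2), -0.44 and 0.21 (Cdk1/Cdk2), -0.82 and 0.42 (Wee1/Pkmyt1), -0.82 and 2.38 (E2f1/E2f3), -0.11 and 0.73 (Rb1/Rbl2), -0.093 and 0.47 (Ccna2/Cdk2) and -0.36 and 0.078 (Wee1/Cdc25a). The log2 ratio of activating over repressing E2Fs, -2.36 on average, became -1.74 with E2f4 to E2f6 alone as repressors, -2.16 in CPM, -2.32 in posterior mean TPM, -2.59 over protein-coding transcripts and -2.53 with a single length per gene; the libraries alone gave -2.36 and -2.35. Members called between the libraries, 28, were 0 by edgeR's exact test at the common dispersion, which comes from the same 2 libraries, and 4 by the 2-fold rule. Leading-transcript calls, 22 of 28 members tested beside 77.8% of all genes tested, were 16 of 20 over protein-coding transcripts, where fewer members could be tested. The share called among all 5363 genes tested over protein-coding transcripts was not taken, so the 16 cannot be set against it. No paired analysis was possible because there is a single group. With 2 libraries, differences under about 1 on the log2 scale are often missed.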

Other observations

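Several members carry annotated transcript lengths that differ between the deposited release and GENCODE M21, which sets their TPM. Besides Cdk7, the main Cdk6 transcript Cdk6-202 is 3735 bases in the deposited tables and 11525 bases in M21. Wee1-201 is 1941 and 3419 bases, and Cdk1-201 is 2886 and 4375 bases. In 15 members, protein-coding transcripts gave less than 75% of the TPM in at least 1 library, while in 19 they gave all of it in both.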
